A study of Mus musculus with 12 samples.

Results

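The genes described here are 9 writers and erasers of H3K4 methylation, read in the RNA of mouse male germ cells over the days around birth. They are the methyltransferases Kmt2a, Kmt2b, Kmt2c and Kmt2d, the CpG-binding subunit Cxxc1, and the demethylases Kdm1a, Kdm1b, Kdm5a and Kdm5b. They were chosen by symbol, as the rows whose Ensembl identifier carries one of these names, and all 9 were found among 55487 genes. All 9 also passed the filter on low values. Methyl groups on lysine 4 of histone H3 (H3K4) mark active or poised promoters and enhancers. KMT2 enzymes add them within COMPASS complexes, whereas LSD enzymes (KDM1) and KDM5 enzymes remove them. In germ cells the mark also bears on imprinting, since the DNA methyltransferase complex binds histone H3 that is unmethylated at lysine 4.

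The study sequenced RNA from gonocytes, the fetal and newborn male germ cells that come before spermatogonia. They were isolated from testes of Mvh-Venus transgenic mice, in which the fluorescent protein Venus marks the germ line. Each of 4 stages had 3 samples: E13.5 and E16.5 are days of embryonic development, P0 is birth and P3 is 3 days later. The labels disagree on genotype: every title and source name says WT, while the genotype tag reads Morc1 (+/-) at E13.5 and P0 and Morc1 (-/-) at E16.5 and P3. Grouping here is by stage alone. Comparisons of E16.5 with E13.5, P0 with E16.5, P3 with P0 and P3 with E13.5 cross the tag, so stage and tag cannot be told apart in them. P0 against E13.5, and P3 against E16.5, each share a tag. Nothing says that samples of a stage came from separate animals or pools, so the p-values measure only the spread between these samples.

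Values are normalized counts, which are the reads of a gene over a size factor that each library has. Each ± is an SD over the 3 libraries of a stage, which are named by the 1, 3 and 4 in the table's column heads. Reads numbered 40946616 to 51533747 per library. Size factors were 0.939 ± 0.0175 for E13.5, 1.13 ± 0.117 for E16.5, 1.94 ± 0.118 for P0 and 1.01 ± 0.0225 for P3, so comparisons with P0 depend most on the scaling. Summed over its 5 markers, the germ cell list reached 244566 to 254461 for E13.5, 232441 to 257754 for E16.5, 133683 to 142168 for P0 and 226306 to 244124 for P3, which is 0.464%, 0.659%, 0.582% and 0.553% of all counts. Markers of the labelled cell type were thus present at each stage. Single markers moved in opposite directions, so the sum does not measure a steady germ cell content. Means in order of stage were 139041, 35953, 59234 and 128882 for Dazl and 58928, 49639, 23180 and 49336 for Ddx4. Dnd1 had 34372, 69582, 3892 and 9366, Mael 14374, 76214, 44978 and 39886, and Tdrd1 2514, 17676, 7634 and 9053. The 5 Sertoli cell markers summed to 3306 to 4468, 10793 to 15361, 13089 to 26149.7 and 5149 to 6696 in the same order. Clu carried most of that sum, with means of 2723, 11041, 16528 and 4487. Means of the others were 446, 804, 1751 and 512 for Sox9 and 298, 548, 1187 and 412 for Gata4. Dhh had 202, 270, 548 and 227, and Amh had 111, 120, 374 and 53.7. The 4 peritubular markers summed to 159 to 209, 929 to 1331, 2835 to 3156 and 684 to 741. Means in the same order were 108, 628, 1652 and 346 for Des and 4.61, 236, 237 and 38.2 for Myh11. Acta2 had 69.0, 218, 1138 and 328, and Tagln had 0.701, 0.884, 3.92 and 7.89. Acta2 and Tagln were thus lower at E16.5 than at P3, against the sum. The summed signal of both supporting cell types was thus higher at E16.5 and P0 than at E13.5 and P3, as for Kdm1b and Kmt2b below, and its part in those results was not tested. Blood and Leydig cell lists are covered beside Kdm1b.

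Kdm1b moved most between stages, and its paralog Kdm1a did not share its pattern. The 250 bases upstream of the start of each are given here (RefSeq, build GRCm38.p6), so that the starts of these related genes can be compared. The Kdm1b stretch is chr13:47043249-47043498 on the plus strand and the Kdm1a stretch is chr4:136602724-136602973 on the minus strand. Both are written 5′ to 3′ with CG dinucleotides in capitals.
Kdm1b: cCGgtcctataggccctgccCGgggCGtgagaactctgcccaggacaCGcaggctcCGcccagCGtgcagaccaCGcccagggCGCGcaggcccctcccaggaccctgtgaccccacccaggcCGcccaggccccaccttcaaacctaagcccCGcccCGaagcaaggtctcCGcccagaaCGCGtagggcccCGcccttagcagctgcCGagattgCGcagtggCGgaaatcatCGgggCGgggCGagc
Kdm1a: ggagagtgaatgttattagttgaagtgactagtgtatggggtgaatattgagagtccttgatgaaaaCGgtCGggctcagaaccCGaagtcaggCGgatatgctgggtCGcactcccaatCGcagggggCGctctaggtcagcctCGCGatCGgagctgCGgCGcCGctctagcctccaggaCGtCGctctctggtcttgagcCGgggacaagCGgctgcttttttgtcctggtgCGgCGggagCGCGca
The Kdm1b stretch held 22 CG dinucleotides and the Kdm1a stretch 21, against a median of 6 over 32851 windows of this length, of which 14.8% and 16.3% held at least as many. GGGCGG, counted on both strands, occurred 6 times upstream of Kdm1b and 0 times upstream of Kdm1a. Each match of it contains a CG already counted. CCAAT occurred 0 times upstream of Kdm1b and 1 time upstream of Kdm1a, and CACGTG was in neither window. Upstream windows of 6 of the 9 members were matched: Kmt2a, Kmt2c, Kmt2d, Kdm1a, Kdm1b and Kdm5b. They held 13 (Kdm5b) to 48 (Kmt2c) CG dinucleotides. GGGCGG was in 5 of these 6 windows and in 32.7% of all windows, CCAAT in 1 of 6 and in 33.8%, and CACGTG in 0 of 6 and in 6.02%. Matches describe the letters only.

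Kdm1b encodes LSD2, a flavin-dependent demethylase known for removing H3K4 methylation in growing oocytes, where maternal imprints depend on it. The gene (ENSMUSG00000038080) lies at chr13:47043499-47085279 on the plus strand (GENCODE M21, GRCm38, as for all coordinates of genes here). Normalized counts of Kdm1b were 4537, 3811 and 3648 for E13.5, 30874, 30816 and 25481 for E16.5, 24434, 22174 and 21396 for P0, and 6665, 6874 and 7505 for P3. No E13.5 or P3 library reached the lowest library of E16.5 or P0, and E16.5 and P0 also did not overlap. Mean levels were 3999 ± 473, 29057 ± 3097, 22668 ± 1578 and 7015 ± 438 in order of stage. The rise to E16.5 was 7.27-fold, a log2 fold change of 2.86 (limma SE 0.0939, adjusted p = 7.04e-14), and it stood at percentile 81.1 of the changes of all 22384 genes tested. From E16.5 to P0 the log2 fold change was -0.35 (limma SE 0.0939, adjusted p = 0.00369), which was -0.097 with median-of-ratios scaling and reversed to 0.31 with equal library totals. The fall to P3 was -1.69 (limma SE 0.0939, adjusted p = 6.57e-11). P3 remained above E13.5 by 0.82 (limma SE 0.0939, adjusted p = 7.38e-07). Within 1 genotype tag, P0 exceeded E13.5 by 2.51 (limma SE 0.0939, adjusted p = 1.78e-13), and P3 was below E16.5, at -2.05 (limma SE 0.0939, adjusted p = 9.35e-12). The 5 changes other than P0 against E16.5 were called in the same direction under all 4 scalings of the libraries.

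Part of Kdm1b cannot be counted apart from a neighbour without strand information. Of its 5495 exon bases, 505 (9.19%) also lie in exons of Dek, a chromatin protein gene on the opposite strand, and the strand setting of the counting is not given in the sources used here. Dek moved the other way, with 15490.4 ± 814 normalized counts for E13.5, 1869.9 ± 105 for E16.5, 2969.6 ± 283 for P0 and 13107 ± 1587 for P3. Shared exon bases were fewer for Kmt2a (2.27%), Kdm5a (1.77%) and Kmt2c (1.35%), and 0 for the others. The log2 fold change of Dek from E13.5 to E16.5 was -3.05 (limma adjusted p = 2.20e-14). Leydig cell markers summed to 571 to 723 for E13.5, 608 to 7681 for E16.5, 1078 to 6106 for P0 and 179 to 267 for P3 over 5 genes, with Insl3 at or under 3 reads per library at E13.5 and P3. Blood markers summed to 66.3 to 443, 1791 to 2513, 1599 to 2532 and 291 to 546 over 5 genes in the same order. Mast cell markers, also 5, summed to 0 for E13.5, 17.2 to 30.9 for E16.5, 1227 to 2628 for P0 and 1.01 to 246 for P3, and the 5 of macrophages and endothelium to 4413 to 5144, 1311 to 1389, 666 to 795 and 690.0 to 774. Of that last sum Pecam1 alone had a mean of 4618 at E13.5 and 282 at E16.5, while the other 4 were higher at E16.5: Adgre1 went from 2.13 to 47.5, Csf1r from 8.79 to 57.3, Cd68 from 46.7 to 938 and Cdh5 from 9.92 to 29.8. The part of these cells in the rise of Kdm1b was not tested. In bulk RNA, fewer cells of a type and less RNA per cell cannot be told apart. Morc1, the gene of the series, had 1697 ± 115 normalized counts for E13.5, 31378 ± 2641 for E16.5, 7496 ± 214 for P0 and 10881 ± 276 for P3. Its means at E16.5 and P3, tagged Morc1 (-/-), were thus above those at E13.5 and P0, tagged Morc1 (+/-). Which genotype label is right was not tested.

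Kdm1a encodes LSD1, the paralog that works with CoREST (RCOR) proteins and histone deacetylases to silence genes. The gene (ENSMUSG00000036940) lies at chr4:136550540-136602723 on the minus strand. Normalized counts of Kdm1a were 23972, 22658 and 22275 for E13.5, 37735, 36932 and 32993 for E16.5, 20602, 18642 and 18148 for P0, and 15565, 15277 and 15540.4 for P3. All E16.5 libraries were above, and all P3 libraries below, every library of the other stages. Means ran from 35887 ± 2538 at E16.5 through 22968 ± 890.1 at E13.5 and 19131 ± 1298 at P0 to 15461 ± 159.7 at P3, and each neighbouring pair in this order passed the test. Kdm1a rose at E16.5 by a log2 fold change of 0.64 (limma SE 0.0698, adjusted p = 2.58e-07). It fell at P0 with -0.91 (limma SE 0.0698, adjusted p = 8.71e-09) and again at P3 with -0.31 (limma SE 0.0698, adjusted p = 8.32e-04). Each of these directions held under all 4 scalings. P3 was also lower than E16.5, at -1.21 (limma SE 0.0698, adjusted p = 1.47e-10), and lower than E13.5, at -0.57 (limma SE 0.0698, adjusted p = 1.53e-06), both again under all 4 scalings. The lower level at P0 than at E13.5, -0.27 (limma SE 0.0698, adjusted p = 0.00207), was -0.062 with TMM factors and reversed to 0.21 with median-of-ratios factors and 0.90 with equal totals.

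Within a library, the ratio of Kdm1b to Kdm1a does not depend on the scaling. It was 0.189, 0.168 and 0.164 for E13.5, 0.818, 0.834 and 0.772 for E16.5, 1.19, 1.19 and 1.18 for P0 and 0.428, 0.45 and 0.483 for P3. The 4 stages did not overlap, and P0 was the only stage with more Kdm1b than Kdm1a counts. Per kilobase of exon, which allows for gene length, Kdm1b reached 4125 ± 287 normalized counts at P0 and Kdm1a 3694 ± 251. At E13.5 the corresponding levels were 728 ± 86.1 and 4435 ± 172. These levels use all exon bases, 5495 for Kdm1b and 5179 for Kdm1a. Their longest annotated transcripts have 4987 and 3028 bases, and by those lengths Kdm1a would stand above Kdm1b at P0 too.

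**Figure D1:**
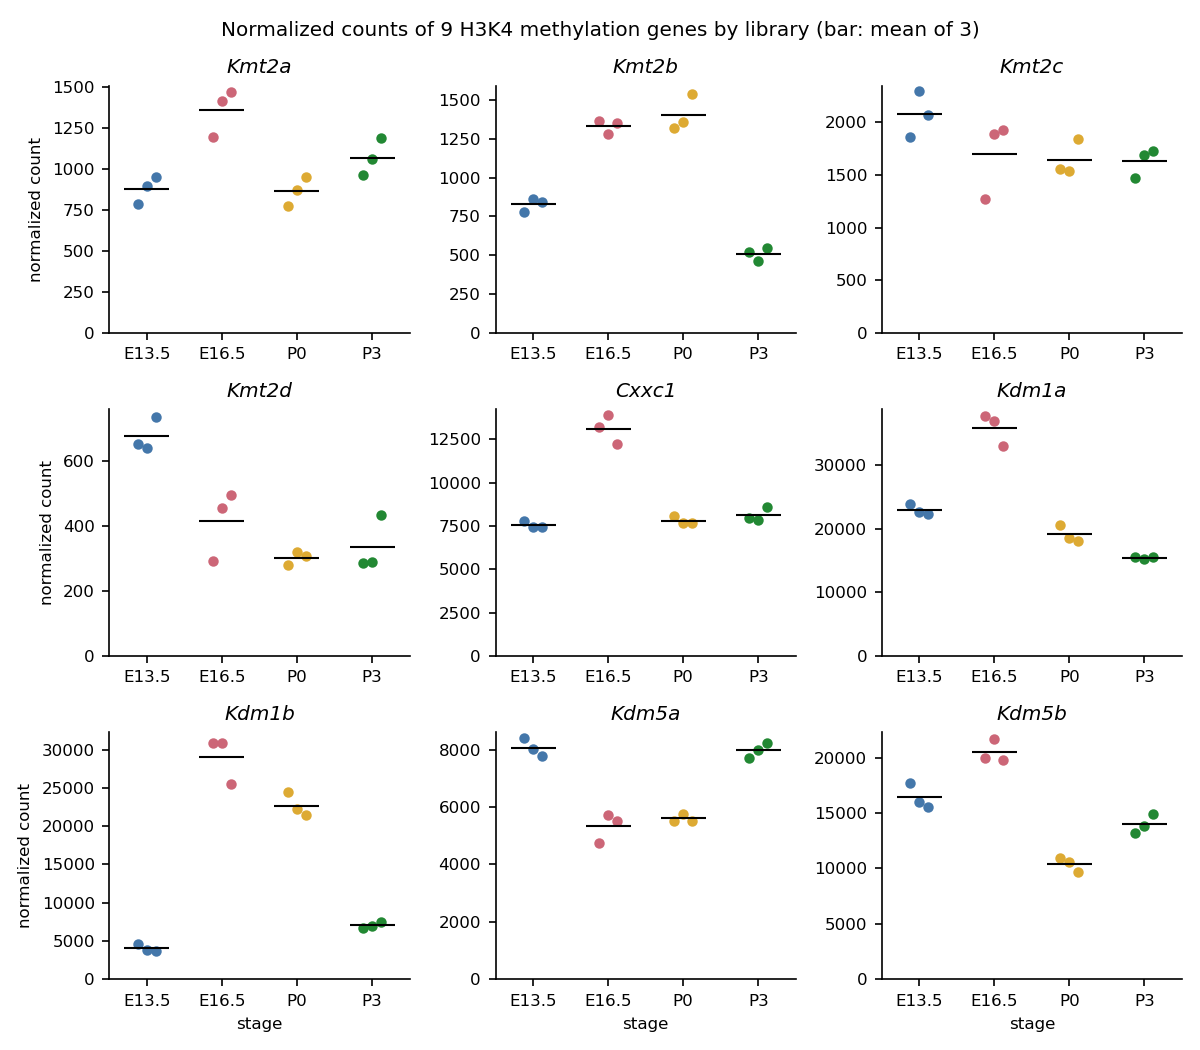
Normalized counts (y axis, linear from 0, a separate scale per panel) of the 9 genes at the 4 stages (x axis), with 1 point per library and a bar at the mean of 3. Kdm1b is high at E16.5 and P0 in all 6 libraries, and so is Kmt2b at a lower range. P3 lies above E13.5 for Kdm1b and below it for Kmt2b. Kdm5a is low at E16.5 and P0, though with equal library totals Kdm5a at P0 lies above E13.5 by 0.65 on the log2 scale.

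Of the methyltransferases, Kmt2b changed most. It encodes MLL2, which trimethylates H3K4 at promoters rich in CpG and is needed for oocyte maturation. The gene (ENSMUSG00000006307) lies at chr7:30568858-30588726 on the minus strand. Normalized counts of Kmt2b were 777, 865 and 844 for E13.5, 1369, 1284 and 1351 for E16.5, 1323, 1359 and 1539 for P0, and 523, 461 and 549 for P3. Libraries of E16.5 and P0 overlapped each other, and all were above those of E13.5, which were all above those of P3. The rise at E16.5 was 0.69 (limma SE 0.0947, adjusted p = 4.33e-06) in log2 units. Levels at P0 and E16.5 differed by 0.073 (limma SE 0.0947, adjusted p = 0.523), and by 0.33 (limma adjusted p = 0.00816) and 0.74 (limma adjusted p = 1.38e-05) with median-of-ratios and equal-total scaling. Kmt2b then fell 2.75-fold from P0 to P3, a log2 fold change of -1.46 (limma SE 0.0947, adjusted p = 4.61e-10). P3 was below E13.5 too, at -0.70 (limma SE 0.0947, adjusted p = 4.88e-06). Within a genotype tag, P0 was above E13.5 by 0.76 (limma SE 0.0947, adjusted p = 1.04e-06), and P3 below E16.5, at -1.39 (limma SE 0.0947, adjusted p = 1.22e-09). All these changes except P0 against E16.5 were called in 1 direction under all 4 scalings.

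Kmt2a, the closest relative of Kmt2b, encodes MLL1, which maintains Hox gene expression. The gene (ENSMUSG00000002028) lies at chr9:44803355-44881296 on the minus strand. Normalized counts of Kmt2a were 789, 894 and 949.6 for E13.5, 1194, 1414 and 1474 for E16.5, 774, 874 and 954 for P0, and 963, 1062 and 1188 for P3. Every E16.5 library was above every other library, P3 was narrowly above E13.5 and P0, and the latter 2 overlapped. Kmt2a rose at E16.5 by a log2 fold change of 0.63 (limma SE 0.114, adjusted p = 8.21e-05), under all 4 scalings. This rise was the one change of Kmt2a that passed under every alternative run. Its fall at P0 was -0.65 (limma SE 0.114, adjusted p = 1.14e-04), which equal totals brought to 0.015. The difference of P3 from P0, 0.30 (limma SE 0.114, adjusted p = 0.0232), was 0.13 and not called with TMM factors, and reversed to -0.14 with median-of-ratios factors and -0.54 with equal totals. It was also no longer called without P0 library 1 (limma adjusted p = 0.113) or P3 library 4 (limma adjusted p = 0.107). The remaining differences of Kmt2a were smaller than its rise at E16.5. P0 and E13.5 differed by -0.018 (limma SE 0.114, adjusted p = 0.888), which became 1.15 with equal totals. P3 was above E13.5 by 0.29 (limma SE 0.114, adjusted p = 0.0339), and below E16.5, at -0.34 (limma SE 0.114, adjusted p = 0.0131), in both cases under all 4 scalings. The first of these was lost when E13.5 library 1 or 3, or P3 library 3 or 4, was left out (limma adjusted p from 0.055 to 0.147), and without the filter on low values (limma adjusted p = 0.0669). The second was lost without E16.5 library 4 (limma adjusted p = 0.0612) or P3 library 1 (limma adjusted p = 0.0685).

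The ratio of Kmt2b to Kmt2a was 0.985, 0.967 and 0.889 for E13.5, 1.15, 0.908 and 0.917 for E16.5, 1.71, 1.55 and 1.61 for P0 and 0.543, 0.434 and 0.462 for P3. E13.5 and E16.5 overlapped, P0 was above and P3 below both. The balance of these paralogs thus shifted by more than the spread between libraries at P0 and again at P3, whatever the scaling.

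Kmt2c and Kmt2d encode MLL3 and MLL4, which monomethylate H3K4 at enhancers. Kmt2d (ENSMUSG00000048154) lies at chr15:98831669-98871204 on the minus strand. Normalized counts of Kmt2d were 653, 641 and 738 for E13.5, 293, 457 and 497 for E16.5, 279, 320.1 and 308 for P0, and 288, 289 and 435 for P3. All E13.5 libraries were above every later one, and the later stages overlapped. Kmt2d fell at E16.5, its log2 fold change being -0.74 (limma SE 0.188, adjusted p = 0.00184), which was -0.23 (limma adjusted p = 0.308) with equal totals. It was lower at P3 than at E13.5, at -1.03 (limma SE 0.188, adjusted p = 1.19e-04), under all 4 scalings. P0 against E13.5 gave -1.16 (limma SE 0.188, adjusted p = 2.19e-05), which equal totals brought to 0.0065. After E16.5 the calls turned on single libraries and on the scaling. The difference of P0 from E16.5, -0.42 (limma SE 0.188, adjusted p = 0.0624), was called without E16.5 library 1 (-0.66, limma adjusted p = 0.004) or without P3 library 4 (limma adjusted p = 0.0376). It was also called by edgeR (adjusted p = 0.0267) and DESeq2 (adjusted p = 0.0217) on the recovered reads. With equal totals its direction turned, to 0.24 (limma adjusted p = 0.309). The difference of P3 from E16.5, -0.29 (limma SE 0.188, adjusted p = 0.178), was likewise called without E16.5 library 1 (limma adjusted p = 0.0131) or P3 library 4 (limma adjusted p = 0.0296). P3 and P0 differed by 0.13 (limma SE 0.188, adjusted p = 0.536), and with equal totals by -0.71.

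Kmt2c (ENSMUSG00000038056) lies at chr5:25271798-25498783 on the minus strand. Of the 9 it had the smallest ratio of highest to lowest stage mean, 1.27. Normalized counts of Kmt2c were 1859, 2295 and 2072 for E13.5, 1275, 1892 and 1927 for E16.5, 1555, 1542 and 1840.4 for P0, and 1468, 1690.1 and 1729 for P3. The E16.5 library 1 was the lowest of all 12, and no stage stood clear of all the others. In that library the 751 genes with at least 8 kb of transcript, Kmt2c and Kmt2d among them, had a median log2 deviation of -0.0829 from the mean of their stage, against 0.0634 in E16.5 library 3. Kmt2c was the only member not called over the 4 stages by limma's F-test (adjusted p = 0.0678), which called the other 8, against 95.2% of all genes tested. The same test called Kmt2c with median-of-ratios factors (limma adjusted p = 0.0304), with equal totals (limma adjusted p = 1.92e-04), and with a pseudocount of 10 (limma adjusted p = 0.0427), and so did edgeR (adjusted p = 0.034) and DESeq2 (adjusted p = 0.034). Its calls were the least stable of the 9. Levels at E16.5 were lower than at E13.5, the log2 fold change being -0.31 (limma SE 0.137, adjusted p = 0.0479). Of the 12 fits that left out 1 library, 8 lost this call (limma adjusted p from 0.051 to 0.346), and without E16.5 library 1 the change was -0.11. The other 7 were those without E13.5 library 3 or 4, P0 library 1 or 3, or any P3 library. It was also lost with TMM (-0.22) and median-of-ratios (-0.087) factors, a pseudocount of 0.1, no filter or only the 2 stages, and equal totals reversed it to 0.20. The later stages gave much the same picture. P0 was lower than E13.5, at -0.33 (limma SE 0.137, adjusted p = 0.0314), lost without E13.5 library 3 or 4 or P0 library 1 or 3 (limma adjusted p from 0.0611 to 0.124), with TMM (-0.13) or without the filter, and reversed to 0.15 and 0.84 with median-of-ratios and equal-total scaling. P3 was lower than E13.5, at -0.35 (limma SE 0.137, adjusted p = 0.0322), lost without E13.5 library 3 or 4 or P3 library 1 (limma adjusted p from 0.0644 to 0.129), without the filter and under each other scaling, with -0.019 for equal totals. From E16.5 on Kmt2c was level in the scaling of the file. Its differences of P0 from E16.5, -0.025 (limma adjusted p = 0.886), of P3 from P0, -0.013 (limma adjusted p = 0.932), and of P3 from E16.5, -0.039 (limma adjusted p = 0.814), were near 0. With equal totals the first became 0.64 and the second -0.85 (limma adjusted p = 1.15e-04).

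Ratios of Kmt2d to Kmt2c were 0.352, 0.279 and 0.356 for E13.5, 0.23, 0.241 and 0.258 for E16.5, 0.18, 0.208 and 0.167 for P0 and 0.196, 0.171 and 0.252 for P3. E13.5 was above every later library, and P3 overlapped both E16.5 and P0. The ratio was thus lower after E13.5 under any scaling.

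Cxxc1 encodes CFP1, which binds unmethylated CpG and brings the SETD1 methyltransferases to promoters. The gene (ENSMUSG00000024560) lies at chr18:74216124-74221496 on the plus strand. Normalized counts of Cxxc1 were 7803, 7430.0 and 7437 for E13.5, 13235, 13924 and 12222 for E16.5, 8062, 7684 and 7662 for P0, and 7964, 7862 and 8596 for P3. E16.5 stood above the other 3 stages, which spanned only 7430 to 8596 normalized counts. Cxxc1 rose at E16.5 by a log2 fold change of 0.79 (limma SE 0.0663, adjusted p = 9.00e-09), under all 4 scalings. Its fall at P0, -0.75 (limma SE 0.0663, adjusted p = 4.95e-08), shrank to -0.085 (limma adjusted p = 0.188) with equal totals. P3 was lower than E16.5, at -0.69 (limma SE 0.0663, adjusted p = 9.01e-08), within 1 genotype tag and under all 4 scalings. Cxxc1 thus peaked at E16.5 and was otherwise level in the scaling of the file. The remaining contrasts were 0.06 (limma adjusted p = 0.416) for P3 against P0, 0.046 (limma adjusted p = 0.518) for P0 against E13.5 and 0.11 (limma adjusted p = 0.163) for P3 against E13.5. TMM factors made the last 2 called, at 0.25 and 0.14 (limma adjusted p = 7.94e-04 and 0.0439). Equal totals gave 1.22 and 0.44, and turned P3 against P0 to -0.78.

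The KDM5 enzymes remove trimethylation and dimethylation from H3K4. Kdm5b (ENSMUSG00000042207) lies at chr1:134560171-134635285 on the plus strand. Normalized counts of Kdm5b were 17690.3, 16011 and 15565 for E13.5, 19945, 21686 and 19824 for E16.5, 10947, 10596 and 9693 for P0, and 13234, 13839 and 14930.0 for P3. The stages did not overlap, and each neighbouring pair of means passed the test: 20485 ± 1042 at E16.5, 16422 ± 1121 at E13.5, 14001 ± 859 at P3 and 10412 ± 647 at P0. Kdm5b rose at E16.5 by a log2 fold change of 0.32 (limma SE 0.0739, adjusted p = 8.19e-04) and fell at P0 by 0.98 (limma SE 0.0739, adjusted p = 7.01e-09), both under all 4 scalings. P3 was higher than P0 by 0.43 (limma SE 0.0739, adjusted p = 6.03e-05), but -0.013 and -0.41 with median-of-ratios and equal-total scaling. P3 was lower than E16.5, at -0.55 (limma SE 0.0739, adjusted p = 4.82e-06), under all 4. The level at P0 and P3 against E13.5 was less firm. P0 against E13.5 was -0.66 (limma SE 0.0739, adjusted p = 2.99e-07), reversed to 0.51 with equal totals. P3 against E13.5 was -0.23 (limma SE 0.0739, adjusted p = 0.0109), reversed to 0.099 with equal totals and lost without E13.5 library 1 (limma adjusted p = 0.0669) or P3 library 1 (limma adjusted p = 0.0537).

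Kdm5a, first known as a retinoblastoma-binding protein, was low at the stages where Kdm1b was high, in the scaling of the file. The gene (ENSMUSG00000030180) lies at chr6:120364124-120444574 on the plus strand. Normalized counts of Kdm5a were 8425, 8016 and 7785 for E13.5, 4752, 5711 and 5531 for E16.5, 5529, 5776 and 5533 for P0, and 7732, 8011 and 8234 for P3. E13.5 and P3 overlapped each other, as did E16.5 and P0, and the 2 pairs were apart. Kdm5a fell at E16.5, its log2 fold change being -0.60 (limma SE 0.0727, adjusted p = 9.15e-07), which equal totals reduced to -0.097 (limma adjusted p = 0.27). P3 was higher than E16.5 by 0.59 (limma SE 0.0727, adjusted p = 1.82e-06), within 1 genotype tag and under all 4 scalings. P3 was higher than P0 by 0.51 (limma SE 0.0727, adjusted p = 7.70e-06), but 0.069 and -0.33 with median-of-ratios and equal-total scaling. Other differences of Kdm5a from P0 turned on the scaling. P0 was lower than E13.5, at -0.52 (limma SE 0.0727, adjusted p = 3.76e-06), reversed to 0.65 with equal totals. P0 and E16.5 differed by 0.078 (limma SE 0.0727, adjusted p = 0.365), and by 0.20 (limma adjusted p = 0.0257) with TMM factors. P3 and E13.5 differed by -0.015 (limma SE 0.0727, adjusted p = 0.876), and by 0.31 with equal totals.

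The ratio of Kdm5b to Kdm5a was 2.10, 2.00 and 2.00 for E13.5, 4.20, 3.80 and 3.58 for E16.5, 1.98, 1.83 and 1.75 for P0 and 1.71, 1.73 and 1.81 for P3. E16.5 stood alone above the other stages, whose libraries lay between 1.71 and 2.10. The peak of Kdm5b over Kdm5a at E16.5 was the same under any scaling.

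**Figure D2:**
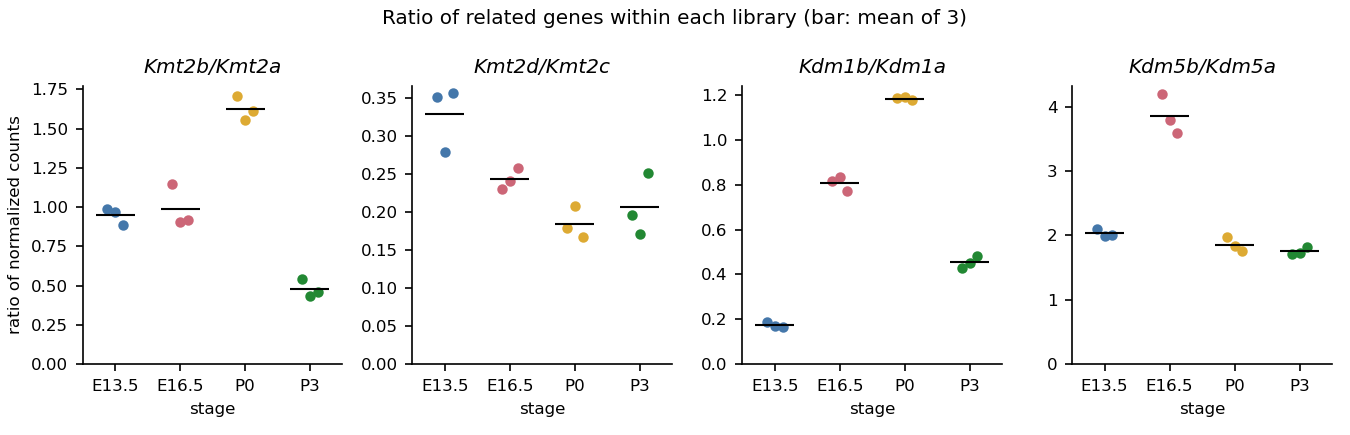
Ratio of normalized counts of 2 related genes within each library (y axis, linear from 0) by stage (x axis), with 1 point per library and a bar at the mean of 3. Kdm1b over Kdm1a rises from 0.174 ± 0.0136 at E13.5 to 1.18 ± 0.00534 at P0 and is 0.454 ± 0.0276 at P3, Kmt2b over Kmt2a peaks at P0 with 1.63 ± 0.0775, and Kdm5b over Kdm5a peaks at E16.5 with 3.86 ± 0.311 (SD, n = 3).

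Levels of different members were compared per kilobase of exon. At E16.5, P0 and P3 the LSD erasers and Cxxc1 led, the KDM5 erasers came next, and the KMT2 methyltransferases were lowest. The place of Kdm1b above Kdm5b at P3 depends on the length used. Their longest annotated transcripts have 4987 and 8714 bases, and by those lengths Kdm5b would stand above Kdm1b at P3. At E13.5 the KMT2 methyltransferases were also lowest, but Kdm5b, with 992 ± 67.7 normalized counts per kilobase, stood above Kdm1b with 728 ± 86.1. At E16.5 the levels were 6929 ± 490.1 normalized counts per kilobase for Kdm1a, 5288 ± 564 for Kdm1b and 3344 ± 218 for Cxxc1. At the same stage they were 1237 ± 62.9 for Kdm5b, 377 ± 36.0 for Kdm5a and 139 ± 4.68 for Kmt2b. Kmt2c, Kmt2a and Kmt2d had 83.7 ± 18.1, 81.6 ± 8.85 and 20.8 ± 5.42 at E16.5. Kdm1a ranked first of the 9 at every stage but P0, where Kdm1b did, and Kmt2d ranked last at all 4. By the longest annotated transcript in place of all exons, Kdm1a would rank first at P0 too. Among 22364 tested genes with a length, Kdm1b stood at percentile 82.1 for E13.5, 98.5 for E16.5, 99.1 for P0 and 89.5 for P3. Kmt2d moved from percentile 48.9 at E13.5 to 23.0 at P0. The KMT2 messages are long, and how evenly the amplified libraries covered them was not measured here.

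**Figure D3:**
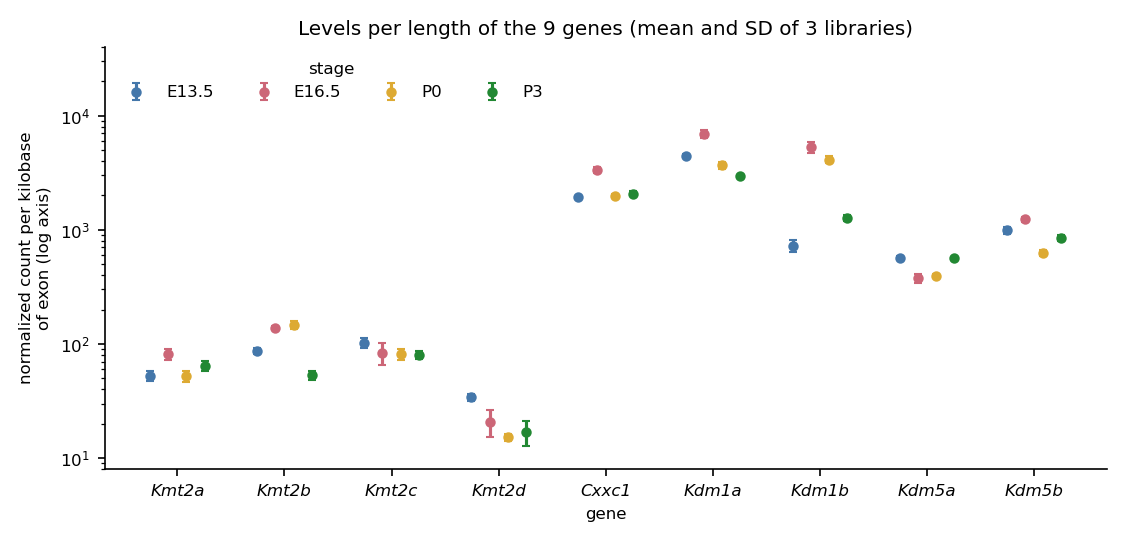
Normalized counts per kilobase of exon (y axis, log scale) of each gene (x axis) at 4 stages (colours), as the mean and SD of 3 libraries. Stage means run from 15.2 (Kmt2d at P0) to 6929 (Kdm1a at E16.5), all means of the 4 methyltransferases lie below every mean of the 5 other genes, and Kdm1b spans the widest range.

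Most genes differed between these stages, so counts of called members are read against the share of all genes called. From E13.5 to E16.5 limma called 9 of 9 members (6 higher, 3 lower) at an adjusted p under 0.05, against 80.1% of 22384 genes tested (45.5% higher, 34.6% lower). The calls were 5 of 9 (0 higher, 5 lower) from E16.5 to P0, against 61.0% of genes (27.6% higher, 33.4% lower). From P0 to P3 they were 6 of 9 (3 higher, 3 lower), against 76.5% (40.1% higher, 36.4% lower). P0 against E13.5 gave 7 of 9 (2 higher, 5 lower), against 86.1% (45.7% higher, 40.5% lower). P3 against E16.5 gave 7 of 9 (1 higher, 6 lower), against 69.5% (34.2% higher, 35.2% lower). P3 against E13.5 gave 7 of 9 (2 higher, 5 lower), against 70.4% (39.2% higher, 31.2% lower). Requiring a 2-fold change as well left 1 member of 9 at E16.5 against E13.5 (Kdm1b), where 59.7% of genes tested passed. By limma it left 0 for P0 against E16.5 (34.0%), also 0 at an unadjusted p under 0.05 and 0 by edgeR and DESeq2. It left 2 for P3 against P0 (Kmt2b and Kdm1b, 54.7%) and 2 for P0 against E13.5 (Kmt2d and Kdm1b, 70.5%). It left 3 for P3 against E16.5 (Kmt2b, Kdm1a and Kdm1b, 45.3%) and 1 for P3 against E13.5 (Kmt2d, 45.4%). In the scaling of the file, the share of members changed 2-fold was thus under that of all genes in each comparison. However, 1 member is 11.1% of the 9, so the 33.3% for P3 against E16.5 is not far from the 45.3% of all genes. Leaving out P0 library 1 brought the count for P0 against E16.5 to 1, and leaving out E13.5 library 4, P3 library 1 or P3 library 3 brought that for P3 against E13.5 to 0. Restricted to the 13135 tested genes whose mean was 100 or more, as it was for all members, the 2-fold shares were 54.4%, 29.8%, 50.5%, 66.1%, 41.1% and 40.0% in the same order.

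The calls were next limited to those made in 1 direction under all 4 scalings, namely the size factors of the file, TMM, median of ratios and equal totals. Relative to the file, equal totals moved the all-gene median of log2 fold changes by 0.53 for E16.5 against E13.5, 0.69 for P0 against E16.5, -0.91 for P3 against P0 and 1.31 for P0 against E13.5. It moved that for P3 against E16.5 by -0.20 and that for P3 against E13.5 by 0.31. Calls toward the higher side went from 56.8% to 70.1%, 45.2% to 78.7%, 52.4% to 25.2%, 53.0% to 77.2% and 55.7% to 68.9% in the 5 comparisons other than P3 against E16.5. At E16.5 against E13.5, Kmt2a, Kmt2b, Cxxc1, Kdm1a, Kdm1b and Kdm5b were higher under all 4, as were 45.4% of all genes tested, with 24.6% lower. For P0 against E16.5, Kdm1a and Kdm5b were lower (all genes 27.5% higher, 15.4% lower). For P3 against P0, Kmt2b, Kdm1a and Kdm1b were lower (all genes 20.4% higher, 36.3% lower). For P0 against E13.5, Kmt2b and Kdm1b were higher (all genes 45.6% higher, 20.3% lower). For P3 against E16.5, Kdm5a was higher and Kmt2a, Kmt2b, Cxxc1, Kdm1a, Kdm1b and Kdm5b were lower (all genes 29.4% higher, 35.2% lower). For P3 against E13.5, Kmt2a and Kdm1b were higher and Kmt2b, Kmt2d and Kdm1a lower (all genes 39.0% higher, 21.8% lower).

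**Figure D4:**
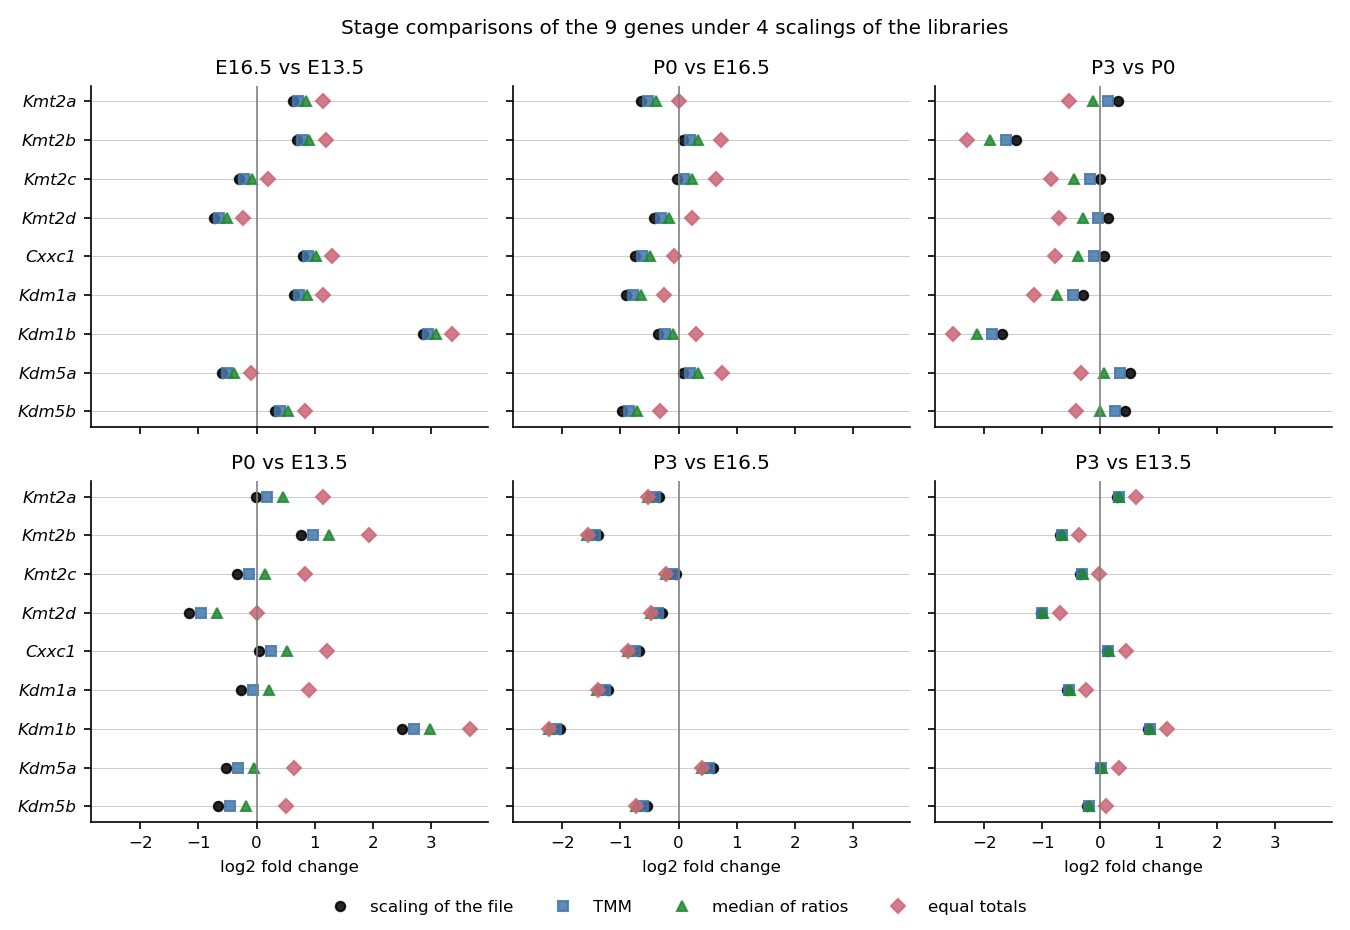
Log2 fold change (x axis) of the 9 genes (rows) in 6 stage comparisons (panels) under 4 scalings of the libraries (symbols). Points of a gene spread little for P3 against E16.5 and most for P0 against E13.5, where Kmt2a goes from -0.018 to 1.15, while Kdm1b stays on 1 side in every panel except P0 against E16.5, where it goes from -0.35 to 0.31.

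Other genes of the H3K4 pathway came from 6 lists of 44 genes, of which 43 were tested (Pagr1a was not). From E13.5 to E16.5, 11 were higher and 23 lower, where 45.5% of all genes tested were higher and 34.6% lower, with a median log2 fold change of -0.54 against 0.31 over all genes. From E16.5 to P0, 6 were higher and 28 lower (all genes 27.6% and 33.4%, median -0.58 against -0.01). From P0 to P3, 23 were higher and 10 lower (all genes 40.1% and 36.4%, median 0.37 against 0.047). Under all 4 scalings the calls that held were 11 higher and 17 lower of 43 at E16.5, where 45.4% and 24.6% of all genes held. They were 6 higher and 12 lower at P0 (all genes 27.5% and 15.4%), and 8 higher and 10 lower at P3 (all genes 20.4% and 36.3%). These shares are the background of the counts by list that follow. Counts called held below are of this kind, and the named changes held except where stated.

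The 4 core subunits shared by all COMPASS complexes are Wdr5, Rbbp5, Ash2l and Dpy30. At E16.5, 1 was higher and 2 lower, all held under every scaling. Dpy30, which binds the C-terminal region of Ash2l, fell from 7767 ± 164 to 2365 ± 142 normalized counts, with -1.72 (limma adjusted p = 1.97e-11) on the log2 scale. All 4 fell at P0, where 2 held under every scaling: those of Rbbp5 and Dpy30 were lost with equal totals. Values were -1.31 (limma adjusted p = 4.18e-10) for Wdr5, the histone-binding adaptor, -0.84 (limma adjusted p = 5.00e-07) for Rbbp5 and -1.22 (limma adjusted p = 6.13e-10) for Ash2l. At P3, 3 rose and 1 fell, all held, with Dpy30 at 1.90 (limma adjusted p = 8.81e-12).

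Of 10 tested subunits found in only some complexes, 2 were higher and 7 lower at E16.5, and all 9 calls held under every scaling. Wdr82, a subunit of the SETD1 complexes that Cxxc1 also joins, fell from 3300.3 ± 82.8 to 569.7 ± 134 normalized counts with -2.56 (limma adjusted p = 4.06e-11). Men1, the menin subunit of the Kmt2a and Kmt2b complexes, fell with -1.60 (limma adjusted p = 1.55e-10) while both of these enzymes rose. Paxip1 and Kdm6a, which belong to the Kmt2c and Kmt2d complexes, fell with -2.20 (limma adjusted p = 5.68e-10) and -1.28 (limma adjusted p = 1.29e-06). At P0 the list had 3 higher and 3 lower, of which 3 and 0 held. At P3 it had 7 higher and 1 lower, of which 2 and 1 held, and Men1 rose with 1.77 (limma adjusted p = 5.97e-11).

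Among 4 other H3K4 methyltransferases, 0 were higher and 2 lower at E16.5, and 1 held: Setd7, a monomethyltransferase, fell from 1788 ± 105 to 334 ± 56.5 normalized counts with -2.43 (limma adjusted p = 1.17e-09). The list had 1 higher and 2 lower at P0 (1 and 1 held) and by limma 0 calls at P3, where 1 gene had an unadjusted p under 0.05 and edgeR and DESeq2 each called 1. The other KDM5 genes, X-linked Kdm5c and Y-linked Kdm5d, both fell at E16.5 under every scaling, with -1.47 (limma adjusted p = 2.46e-07) and -1.54 (limma adjusted p = 3.75e-05), as Kdm5b rose. They had 1 lower at P0 and 1 higher at P3, with none held.

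Partners of the LSD enzymes split. Of 11, 4 were higher and 6 lower at E16.5 (4 and 4 held), 2 higher and 9 lower at P0 (2 and 4 held), and 6 higher and 3 lower at P3 (2 and 3 held). Phf21a, a reader of unmethylated H3K4 in the Kdm1a complex, rose at E16.5 with 1.07 (limma adjusted p = 5.26e-09) and fell at P3 with -1.55 (limma adjusted p = 5.93e-11). Glyr1, the cofactor of Kdm1b, rose at E16.5 from 16698 ± 901 to 27124 ± 2365 normalized counts with 0.70 (limma adjusted p = 4.51e-07). At P0 Glyr1 fell with -1.34 (limma adjusted p = 3.40e-10). The deacetylase Hdac1 fell at E16.5 with -2.43 (limma adjusted p = 6.64e-14) and rose at P3 with 2.04 (limma adjusted p = 9.13e-13). The CoREST gene Rcor3 rose at P0 with 1.92 (limma adjusted p = 1.62e-07) and fell at P3 with -1.60 (limma adjusted p = 8.06e-07), and Rcor1 fell at P3 with -1.70 (limma adjusted p = 3.04e-11). Zmym3 rose at P3 with 1.97 (limma adjusted p = 3.94e-13).

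Readers of H3K4 had 4 higher and 4 lower of 12 at E16.5 (4 and 1 held), 0 higher and 9 lower at P0 (0 and 5 held), and 6 higher and 5 lower at P3 (1 and 5 held). Dnmt3l, which binds unmethylated H3K4 and stimulates de novo DNA methylation, rose from 17.8 ± 5.31 to 20342 ± 1795 normalized counts with 10.12 (limma adjusted p = 1.91e-17), and fell at P3 with -3.65 (limma adjusted p = 1.72e-12). Dnmt3a, its catalytic partner, rose at E16.5 from 5254 ± 149.6 to 52805 ± 4712 with 3.33 (limma adjusted p = 8.89e-16). Phf8, a demethylase that reads trimethylated H3K4, rose at E16.5 with 1.49 (limma adjusted p = 2.89e-09).

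Genes whose pattern was most like each member were sought by the root mean square difference of centred log2 values over the 12 libraries, among 12190 genes (mean 100 or more). The differences are on the log2 scale, and 0 would be an identical pattern. For the LSD genes the 2 nearest were Abcd2 (0.122) and Btbd11 (0.189) for Kdm1b, and Cfap97 (0.0542) and Os9 (0.0773) for Kdm1a. For the methyltransferases they were Erc1 (0.122) and Ggcx (0.133) for Kmt2a, Pou2f3 (0.129) and Ubr4 (0.149) for Kmt2b, Atxn2l (0.123) and Myo9a (0.155) for Kmt2c, and Dyrk1b (0.153) and Zkscan7 (0.172) for Kmt2d. The remaining pairs were Otud5 (0.0348) and Arhgef10 (0.0882) for Cxxc1, Slc39a7 (0.0819) and Tmod2 (0.0897) for Kdm5a, and Ankle2 (0.0753) and Anapc2 (0.0804) for Kdm5b. No member was the nearest gene of another. The nearest member of Kdm1b was Kmt2b at 0.834, that of Kdm5a was Kmt2c at 0.275, and that of Kmt2a was Cxxc1 at 0.19.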

How the data were processed

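RNA sequencing covered 12 samples of male germ cells over 4 stages. Per the labels' protocols, a kit for small inputs gave the RNA, and the SMART-seq v4 kit, which amplifies complementary DNA, was used with a TruSeq mRNA kit. The authors deposited 1 signal table of 55487 Ensembl genes, whose values are featureCounts read counts divided by 1 size factor per library (RLE scaling), per the file's name. Per the submitters' processing notes, bcl2fastq 2.20, cutadapt 1.18, HISAT2 2.1.0, featureCounts 1.5.2, DESeq2 1.26.0 and the builds mm10 and GRCm38 were used. Annotation release, strand setting and treatment of multi-mapping reads are not given in the sources used here. Dividing each library by its smallest value gave whole numbers for 100% of values (tolerance 0.001), hence whole reads, 40946616 to 51533747 per library. Median-of-ratios factors computed here from these reads, brought to the same geometric mean, differed from the size factors of the file. They were 1.60 against 1.92 for P0 library 1 and 1.09 against 0.947 for E13.5 library 1. The reason for this difference was not tested. Amplified reads without molecular identifiers are not independent molecules. Symbols matched 99.4% of identifiers. Lengths and coordinates came from GENCODE M21 on GRCm38.

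The test was limma 3.58.1 under R 4.3.3 (lmFit, eBayes with trend), applied to log2(normalized count + 1) over all 4 stages. The filter kept 22384 genes that reached 10 normalized counts in 3 or more libraries. Calls used a Benjamini-Hochberg adjusted p under 0.05 over all genes tested, and a second rule added a 2-fold change. Fold changes are on the log2(value + 1) scale, which understates changes of low genes. Ratios, levels per kilobase and promoter letters are descriptions. Alternatives were TMM, median-of-ratios and equal-total scaling, pseudocounts of 0.1 and 10, no filter, a fit of only the 2 stages compared, each library left out, and edgeR 4.0.16 (quasi-likelihood) and DESeq2 1.42.0 on the recovered reads with the size factors of the table. Applying them to the lists, a background of genes with a mean of at least 100, and a block by the number in the column heads were added after seeing the data. On simulated data with 22384 genes and 200 changed at P0, limma recovered 93.4% of 2-fold changes between P0 and E16.5, 95.1% of those between P3 and P0 and 100% of 4-fold changes for genes whose mean was 100 or more. It called 5 and 7 unchanged genes. Over changed genes of any mean, limma recovered 62% and 65% of 2-fold changes and 78% of 4-fold changes in the same 2 comparisons. The simulated fit was given the true size factors and few genes changed, so it cannot speak to the dependence on scaling.

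Members and lists were chosen with earlier results of these data known. Named genes are the 9 members, genes of the H3K4 lists, the 2 genes nearest in pattern to each member (mean of at least 100, no predicted-gene or clone name) and Morc1. Dek was added after its values were seen, as the gene that overlaps Kdm1b. Python 3.11.15 with pandas 2.3.3, numpy 2.4.6 and matplotlib 3.10.9 was used for the other steps.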

Additional observations from a re-analysis of the deposited data

How the results depend on the processing

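Of 1188 values of the 9 members' 54 log2 fold changes under alternatives, 1074 kept their direction and side of the threshold, 45 lost the call, 22 gained it and 23 reversed with a call on at least 1 side, all of the last with another scaling. A further 24, called neither before nor after, turned direction, 9 with another scaling and 15 with a library left out. Kmt2d for P0 against E16.5 is one of them, at 0.24 with equal totals. The reversals with a call involve P0 or E13.5 on 1 side, and none arose between P3 and E16.5, where 3 of the uncalled values turned. With equal totals, the log2 fold change of E16.5 against E13.5 was 0.20 for Kmt2c. For P0 against E16.5 it was 0.015 for Kmt2a, 0.64 for Kmt2c and 0.31 for Kdm1b. For P3 against P0 it was -0.54 for Kmt2a, -0.71 for Kmt2d, -0.78 for Cxxc1, -0.33 for Kdm5a and -0.41 for Kdm5b. For P0 against E13.5 it was 1.15 for Kmt2a, 0.84 for Kmt2c, 0.0065 for Kmt2d, 0.90 for Kdm1a, 0.65 for Kdm5a and 0.51 for Kdm5b. For P3 against E13.5 it was 0.31 for Kdm5a and 0.099 for Kdm5b. With median-of-ratios factors, P3 against P0 was -0.14 for Kmt2a, -0.38 for Cxxc1 and -0.013 for Kdm5b, and P0 against E13.5 was 0.46 for Kmt2a, 0.15 for Kmt2c and 0.21 for Kdm1a. Leaving out each library in turn kept the side of the threshold for 619 of 648 values (604 with their direction), lost 25 calls and gained 4.

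The number of members changed at least 2-fold went from 1 to 2 (median of ratios) and 5 (equal totals) at E16.5 against E13.5, and from 2 to 1 (TMM) and 4 (equal totals) for P0 against E13.5. Over all genes tested, the same rule passed 13331 of 22735 with median of ratios and 13476 of 23221 with equal totals at E16.5 against E13.5. For P0 against E13.5 it passed 15454 of 22504 with TMM and 15139 of 23221 with equal totals. The number of members went from 1 to 0 with TMM and with median-of-ratios factors for P3 against E13.5, where 10124 of 22504 and 10147 of 22735 genes passed. Leaving out each library in turn gave 0 to 1 for P3 against E13.5 and 0 to 1 for P0 against E16.5. The core subunits called for P0 against E16.5 went from 4 to 2 with equal totals, where 16186 of 23221 genes tested were called. Calls among the 4 other methyltransferases went from 0 for P3 against P0 to 2 (median of ratios), 4 (equal totals), 1 (edgeR) and 1 (DESeq2). Over all genes, 17387 of 22735, 18142 of 23221, 17358 of 22384 and 17233 of 22384 were called in the same settings. Leaving out a library gave 0 to 1 of these methyltransferases for P3 against P0, and 1 to 2 in place of 2 for E16.5 against E13.5. Calls among the other KDM5 genes went from 1 for P0 against E16.5 to 0 (equal totals) and 2 (pseudocount 10, edgeR and DESeq2), with 1 to 2 on leaving out a library. Over all genes, 16186 of 23221, 15048 of 22384, 14370 of 22384 and 14156 of 22384 were called in these 4 settings. Calls among these KDM5 genes went from 1 for P3 against P0 to 2 with TMM (17248 of 22504 genes) and 1 to 2 on leaving one out. The cause of these changes was not tested. Over the 12 libraries, mean levels per kilobase moved to 120.4 (Kmt2b) and 3373 (Kdm1b) with equal totals. Over the longest annotated transcript in place of all exons they were 120.5 (Kmt2b), 117.7 (Kmt2c), 3495 (Cxxc1), 7715 (Kdm1a), 617 (Kdm5a) and 1759 (Kdm5b).

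The column heads carry 1, 3 and 4 in every stage, whereas the labels number replicates 1, 2 and 3, so these heads share only a number. Deviations of columns with the same number in different stages correlated at -0.0356 to 0.0423 over 18 pairs, and 2 of 12 libraries correlated best with their own number. A fit with this number as a replicate block, added after seeing the data, called 9 members by the F-test in place of 8 and 6 in place of 5 for P0 against E16.5, where Kmt2d gained the call (limma adjusted p = 0.0301). It changed no other call of a member, and moved no count of all genes called by over 1.5 times (13529 in place of 13658 for P0 against E16.5).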
